A study of Thermothelomyces thermophilus ATCC 42464 with 24 samples.

Results

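The genes described here are 31 of the 9110 genes counted in Myceliophthora thermophila, a thermophilic filamentous fungus that breaks down cellulose. They were high in the wild type (WT) on glucose and low in WT on Avicel, a microcrystalline cellulose, at each of the 3 days sampled. A member averaged 50 CPM or more in WT on glucose, where CPM is a gene's counts in each 1000000 counts of the library. Its level there was at least 4 times the mean, plus 1 CPM, of WT on Avicel at 2, 4 and 6 d. It was also less than 8 times as high in the libraries labelled Δcre-1 as in WT, and less than 8 times as high in WT at 6 d as at 2 d. Of 4396 genes past the first threshold, 91 passed at 2 d, 57 also at 4 d and 36 also at 6 d, and the 2 remaining bounds left 34 and then 31. A pair of transporter genes was set aside beforehand and removed no member. Because the rule was written on the WT libraries, the difference between WT on Avicel and WT on glucose is a description here and is not tested. The libraries labelled ΔlaeA on both carbon sources and those labelled Δgrf did not enter the rule.

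Filamentous fungi express many genes according to the carbon source. While glucose is available, genes for the use of poorer sources are held down by carbon catabolite repression, in which Cre-1 is a central repressor. On cellulose the fungus secretes cellulases and takes up the sugars released from it, and genes used in growth on glucose can fall at the same time. LaeA is a putative methyltransferase known in other moulds for its broad control of secondary metabolite genes and development, and many secondary metabolite pathways are encoded by genes that lie next to each other.

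The study asked how LaeA and 4 growth regulators act on growth, carbon use and cellulase genes. The cultures were kept at 45 °C in Vogel's salts. On 2% Avicel there were 2 libraries each from the strain labelled ΔlaeA and from WT after 2, 4 and 6 d. On 2% glucose, sampled after 24 h, there were 2 libraries each for the labels Δcre-1, ΔlaeA, Δgrf-1 and Δgrf-3, 1 usable library for Δgrf-2, and 2 of WT. Every Avicel culture was thus older than every glucose culture, so carbon source and culture age cannot be told apart between them. The deletions were made by replacing the coding region with a selection marker, and the labels name no independent clones. All were RNA of whole mycelium, in which fewer hyphae of a kind and less RNA per hypha cannot be told apart. The study calls the Avicel samples of a time point biological replicates, and the labels do not name the cultures behind any library, so p-values measure the spread between these libraries, which may be technical for those on glucose.

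The 23 libraries held 18114947 to 33937501 counts, so that 3 counts stood for 0.0884 to 0.166 CPM. All levels below are CPM on totals scaled by TMM unless stated. The labels were not borne out by the genes they name. laeA averaged 269.4 CPM in the glucose libraries labelled ΔlaeA and 20.3 CPM in WT on glucose (log2 difference 3.73 ± 0.20 SE). On Avicel at 2, 4 and 6 d laeA averaged 223.6, 263.0 and 293.4 CPM in the libraries labelled ΔlaeA, against 10.2, 8.66 and 110.9 CPM in WT. Likewise, cre-1 averaged 2267 CPM in the libraries labelled Δcre-1 and 588.5 CPM in WT on glucose (1.95 ± 0.23 SE). The grf-1, grf-2 and grf-3 genes were not called lower in the libraries labelled with them (log2 differences of 0.38, −0.75 and 0.43 from WT on glucose). Each strain is therefore named by its label, and every direction below rests on those labels. The carbon source labels were borne out at 2 and 4 d. They were checked by cbdA, taken here as a gene of cellulose use. It averaged 489, 4321 and 52.4 CPM at 2, 4 and 6 d in the libraries labelled ΔlaeA on Avicel, against 10.4 CPM on glucose. In WT on Avicel it averaged 4038 and 16.2 CPM at 2 and 6 d, against 14.9 CPM on glucose. In WT at 4 d its 2 libraries stood far apart, at 136.0 and 3103 CPM, both above glucose. At 6 d the WT cultures on Avicel were thus near the glucose level of cbdA, and the members were low there all the same, as the rule required.

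On Avicel the members took 0.11% to 0.72% of all counts in the libraries labelled ΔlaeA and 0.068% to 0.17% in those of WT. On glucose their share was 0.93% and 1.08% in the libraries labelled ΔlaeA, 0.29% to 0.38% in those labelled Δgrf, 0.15% in both labelled Δcre-1, and 1.28% and 1.29% in WT. Per length, the highest members in WT on glucose were Mycth_88187 (2025 RPKM, reads per kilobase of gene in each 1000000 reads), Mycth_2307988 (1233 RPKM), Mycth_2301830 (1136 RPKM), Mycth_112025 (1030 RPKM) and Mycth_2301829 (1000 RPKM), and the lowest was Mycth_108317 (25.7 RPKM).

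Most members carry no name or described product in the sources used here. In the reference 30 of 31 matched by locus tag and 0 had a symbol. The part of the annotation of the study that was used describes 865 genes. Among the members it describes 3: Mycth_112025 as a glutathione S-transferase, of the enzymes that join glutathione to reactive compounds, Mycth_108317 with a phosphopantetheine attachment site, the arm that holds a growing chain in carrier proteins such as those of polyketide and peptide synthases, and Mycth_11658 as a transferase. Mycth_108317 was the only member among 11 genes listed for secondary metabolism. No member was among 61 transporters, 74 oxidoreductases, 24 transcription factors, 56 carbohydrate-active enzymes, 25 genes of the ribosome and translation or 7 histone and chromatin genes listed by product text, or among the 6 carbon metabolism genes, 5 regulators and 5 amino acid permeases that the study names. Since 27 of the members were not in that annotation, these counts leave most of them unplaced. By gene order, 13 members lay in 5 runs of near neighbours. Of 30 members placed, only Mycth_75151 overlaps another gene, Mycth_98410, and without strand their counts cannot be told apart.

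The values nearest the thresholds were close on both sides. Just inside the 4-fold limit were Mycth_2307988, Mycth_2302074 and Mycth_2308266, at 4.02, 4.07 and 4.11 times their highest mean in WT on Avicel plus 1 CPM. Just outside were Mycth_2313356, Mycth_2305264 and Mycth_112824, at 4.00, 4.00 and 3.99 times. On unscaled totals, Mycth_2303056, Mycth_2306121 and Mycth_11658 had 52.4, 71.6 and 76.4 CPM in WT on glucose, just inside 50 CPM, and Mycth_2303057, Mycth_2139328 and Mycth_84302 had 46.3, 46.2 and 39.6 CPM, just outside it.

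The 2 WT libraries on glucose, on which the choice rests, stood apart at these genes. Of the 31 members, 16 differed at least 2-fold between them, 13 of these being higher in replicate 2 and 3 in replicate 1. Over the 9110 genes counted, 240 that averaged 10 CPM or more differed at least 2-fold in WT on glucose, on unscaled levels plus 1 CPM. In the libraries labelled Δgrf-3, 630 did. With 1 CPM added to each unscaled level, 16 members differed at least 2-fold in WT on glucose and 13 in the libraries labelled Δgrf-3. By that measure 0 did in the glucose libraries labelled ΔlaeA, Δgrf-1 and Δcre-1. Without the added 1 CPM, some members at low levels did differ there, such as Mycth_82772 at 0.99 and 2.27 CPM in ΔlaeA and Mycth_98002 at 2.42 and 1.11 CPM in Δcre-1. Mycth_98002 had 1.85 CPM in WT replicate 1 and 250.5 CPM in replicate 2, and Mycth_2303056 had 3.45 and 91.1 CPM. For these 2 genes the high glucose level is that of a single library. With each WT glucose library alone, 16 members met the rule in both cases, 12 others failed on replicate 1 alone and 3 failed on replicate 2 alone.

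**Figure D1:**
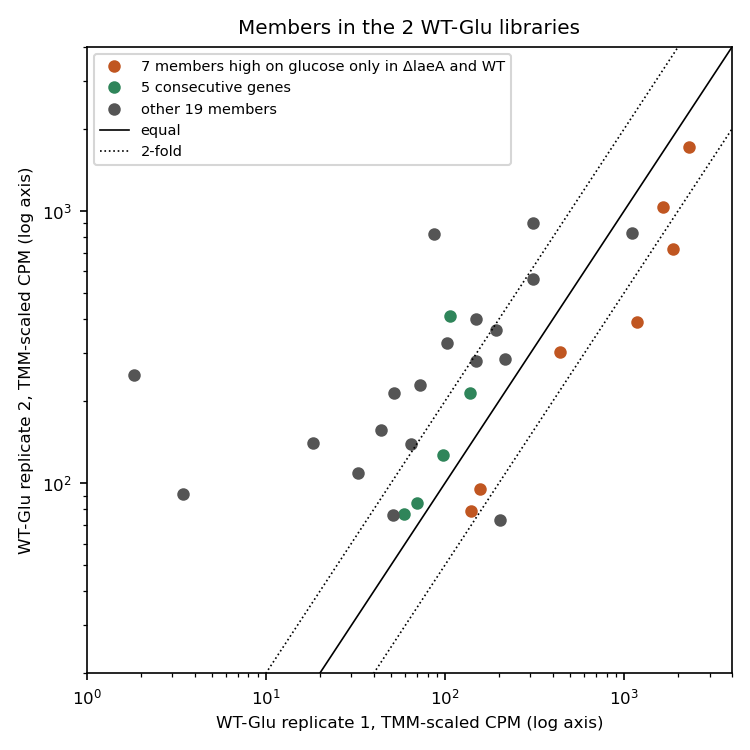
Each point is a member, with its TMM-scaled CPM in WT on glucose replicate 1 on the horizontal and replicate 2 on the vertical log axis; the solid line marks equal levels and the dotted lines 2-fold differences. Outside the dotted lines lie 16 of the 31 members, with Mycth_98002 (1.85 and 250.5 CPM) and Mycth_2303056 (3.45 and 91.1 CPM) farthest above.

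**Figure D2:**
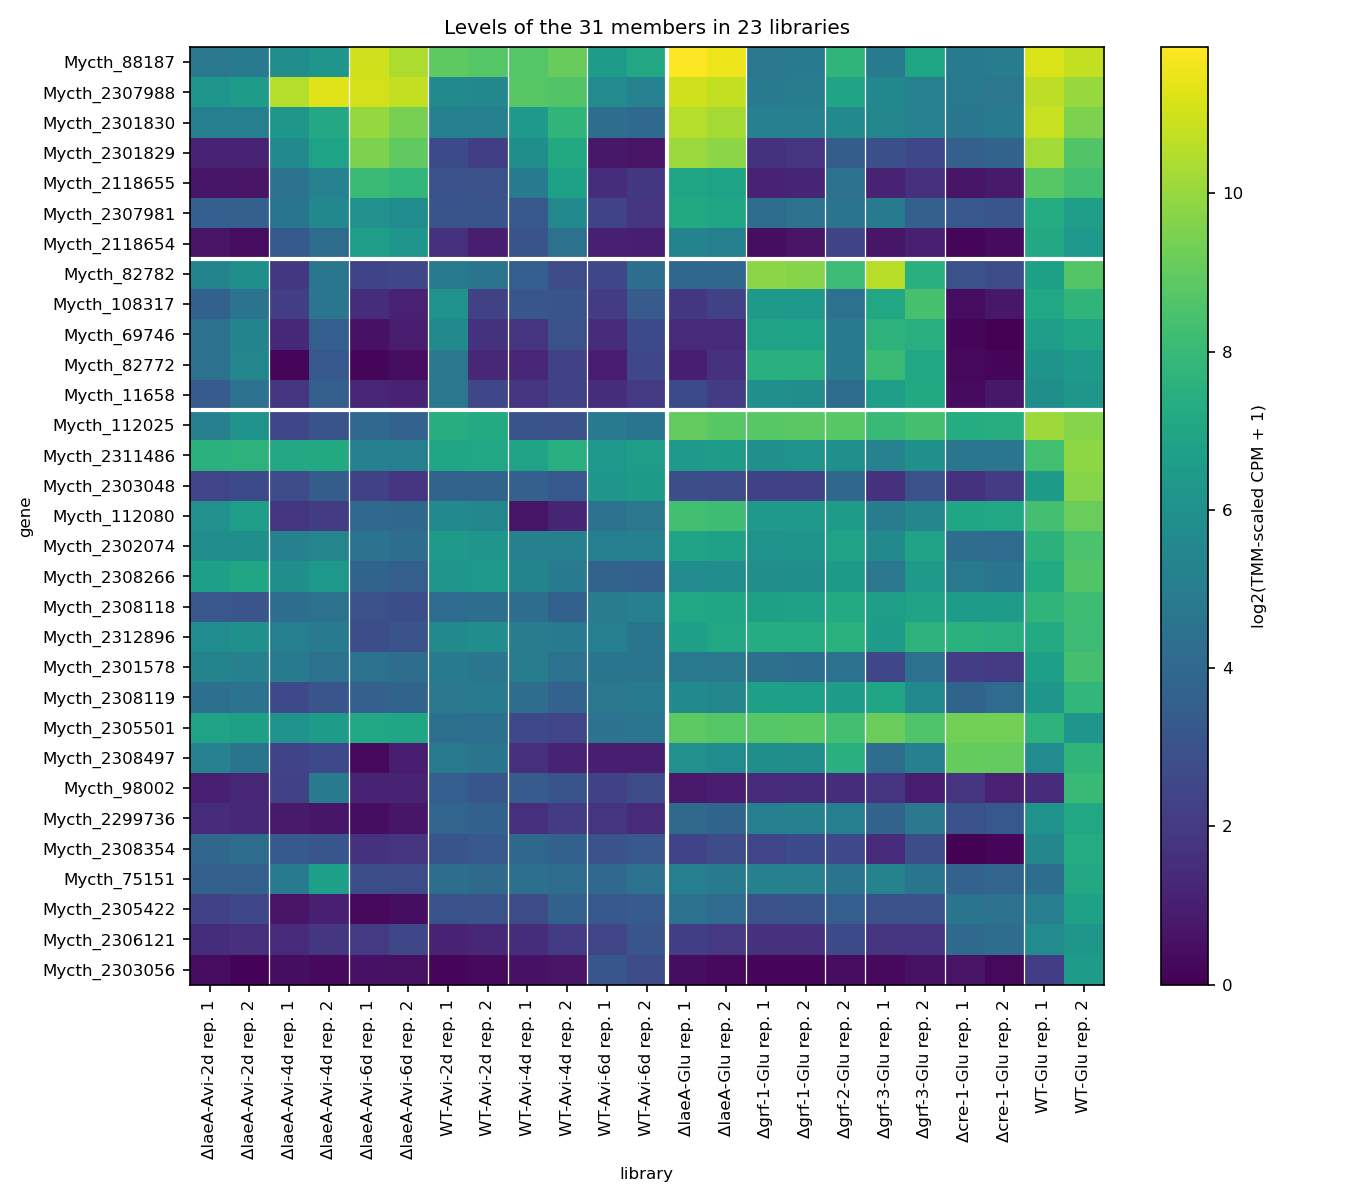
Colour gives log2(TMM-scaled CPM + 1) of the 31 members (rows) in the 23 libraries (columns), named by their labels; white lines divide groups of libraries, and rows are split into 7 genes, 5 consecutive genes and the other 19. The first block is bright on glucose in ΔlaeA and WT and at 6 d on Avicel in ΔlaeA. The second block is bright on glucose in Δgrf-1, Δgrf-3 and WT, and less so in Δgrf-2 apart from Mycth_82782.

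Whether the members were also low on Avicel in libraries that the rule did not use was asked of the strain labelled ΔlaeA, by edgeR's quasi-likelihood test with Benjamini-Hochberg adjustment over 8827 genes. A gene was called at an adjusted p below 0.05 and a change of at least 2-fold. At 2 d on Avicel against glucose, 15 of 31 members were called lower (6.76% of all genes tested) and 4 higher (5.19% of all). At 4 d, 16 were called lower (15.6% of all) and 1 higher (16.2%), and at 6 d 13 lower (16% of all) and 1 higher (17.5%). With only the groups compared in the fit, 21 were called lower and 2 higher at 6 d. The median log2 difference of the members was −1.03, −1.47 and −1.34 at 2, 4 and 6 d, beside −0.02, 0.02 and 0.04 over all genes tested. The 3 comparisons share the same 2 glucose libraries. Over the 3 days, 8 members were called lower on every day, 8 on 2 days, 4 on 1 day and 11 on none. The share of all genes called lower on as many days was not counted, so these counts are a description. Of the 16 members that met the rule with each WT glucose library alone, 9, 9 and 4 were called lower at 2, 4 and 6 d. The member called higher at 4 d was Mycth_98002, which had 3.92 and 29.4 CPM there, against 0.73 and 0.86 CPM on glucose (4.36 ± 1.59 SE, adjusted p = 0.0302), and it was not called without either glucose library (4.26 and 4.49) or without replicate 2 of 4 d (2.27).

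**Figure D3:**
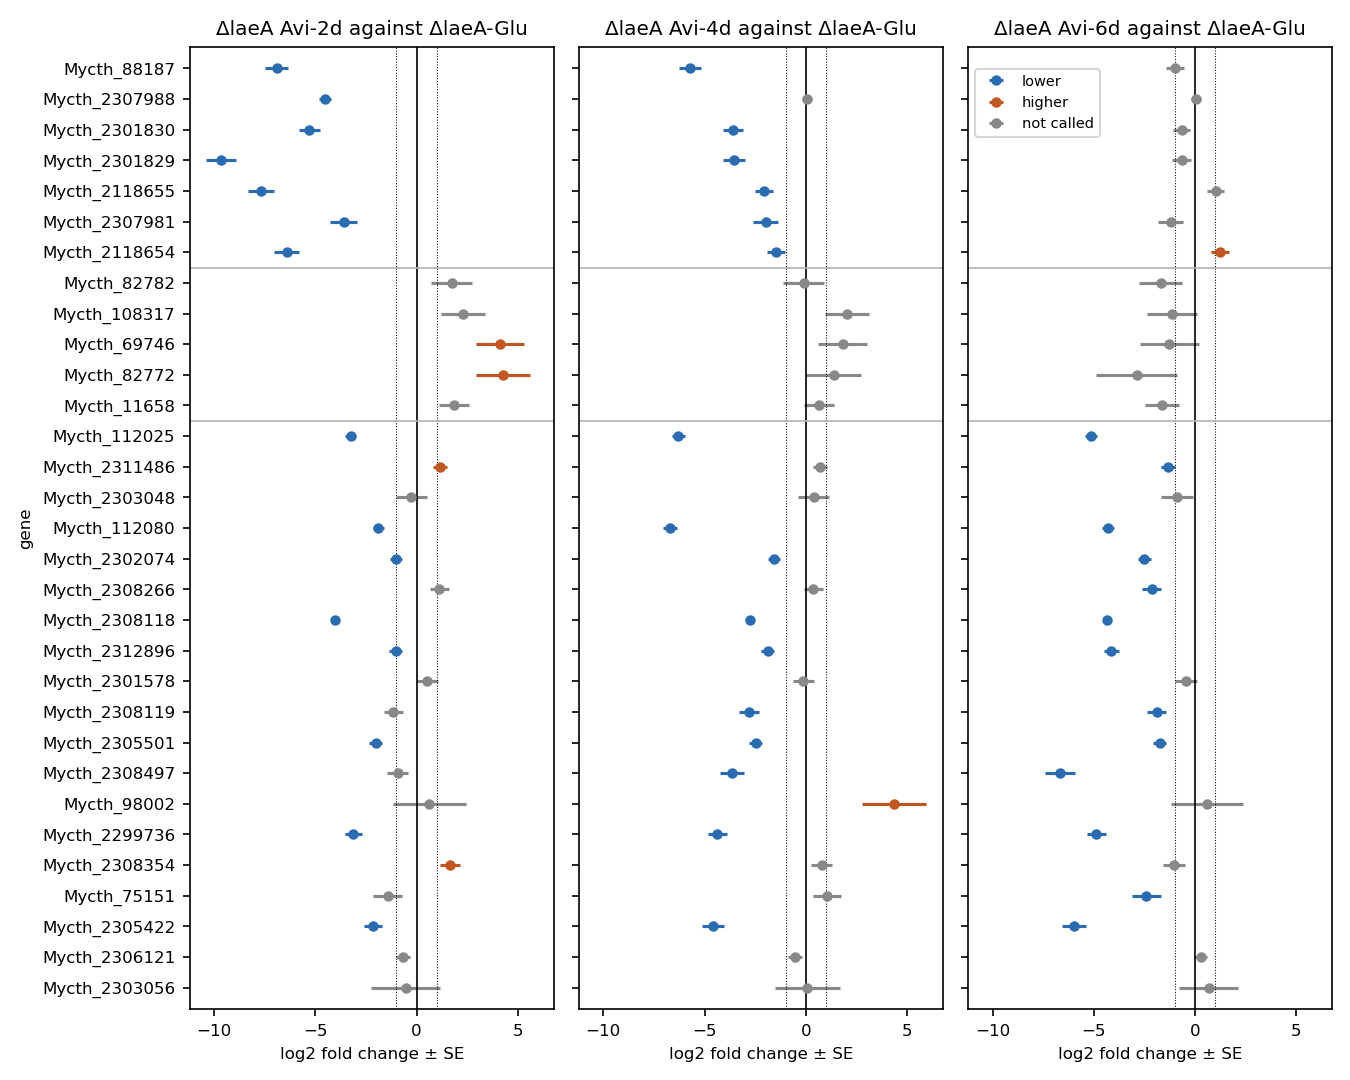
Log2 fold change ± SE of each member in the libraries labelled ΔlaeA on Avicel at 2, 4 and 6 d against the same strain on glucose (n = 2 libraries each); blue was called lower, orange higher and grey not called, and dotted lines mark 2-fold. The 7 genes at the top lie between −9.65 and −3.61 at 2 d and between −1.21 and 1.23 at 6 d, while the 5 below them are all above 0 at 2 d. Both sets were picked by levels in some of these libraries, so their placing is a description.

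The 8 members called lower on every day were Mycth_112025, Mycth_112080, Mycth_2302074, Mycth_2308118, Mycth_2312896, Mycth_2305501, Mycth_2299736 and Mycth_2305422. Mycth_112025, the glutathione S-transferase gene, had 34.7 and 65.3 CPM at 2 d, 4.75 and 7.49 CPM at 4 d and 15.4 and 12.1 CPM at 6 d on Avicel in the libraries labelled ΔlaeA, against 519.1 and 439.3 CPM on glucose. Every Avicel library was below both glucose libraries, with log2 differences of −3.26 ± 0.27, −6.29 ± 0.32 and −5.12 ± 0.30 SE (adjusted p = 5.9e-07, 8.59e-10 and 1.35e-09 in edgeR). It fell further between 2 and 4 d (−3.03 ± 0.28) and was higher at 6 than at 4 d (1.17 ± 0.27), a rise that dropped below 2-fold without replicate 1 of either day (0.86 without that of 4 d and 0.99 without that of 6 d). Mycth_112080 had the same order of days, with 61.9 and 97.4 CPM at 2 d, 2.54 and 3.15 CPM at 4 d and 15.6 and 14.5 CPM at 6 d, against 309.5 and 287.2 CPM on glucose in the same strain. Its log2 differences from glucose were −1.91 ± 0.27, −6.71 ± 0.35 and −4.31 ± 0.31 SE (adjusted p = 0.000133, 2.1e-09 and 1.4e-08). Both genes were lowest at 4 d in WT on Avicel as well, at 7.40 and 7.10 CPM for Mycth_112025 and 0.60 and 1.32 CPM for Mycth_112080.

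Mycth_2308118 had the smallest standard errors of the 8. It had 8.20 and 7.74 CPM at 2 d, 17.6 and 21.5 CPM at 4 d and 6.60 and 6.30 CPM at 6 d in the libraries labelled ΔlaeA, against 134.4 and 126.0 CPM on glucose (log2 differences −4.03 ± 0.20, −2.74 ± 0.19 and −4.34 ± 0.20 SE). Mycth_2305422 and Mycth_2299736 were near the floor by 6 d, at 0.22 and 0.37 CPM and at 0.36 and 0.63 CPM, against 20.8 and 16.9 CPM and 16.3 and 13.2 CPM on glucose in that strain. For Mycth_2302074 and Mycth_2312896 the call at 2 d was narrow (−1.01 ± 0.30 and −1.03 ± 0.32 SE) and was lost without either 2 d library, where they stood at −0.96 and −1.07, and at −0.94 and −1.12. It was also lost without replicate 1 on glucose for Mycth_2302074 (−0.94) and without replicate 2 on glucose for Mycth_2312896 (−0.82), and for Mycth_2302074 under every other scaling, filter and tool tried (−0.94 to −0.99) but the replicate block. That of Mycth_2312896 was also lost with library totals (−0.96), with no low-count filter (−0.997) and at 10 CPM or more in 2 libraries (−0.99). At 6 d these 2 genes were at −2.50 ± 0.31 and −4.13 ± 0.36 SE.

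Mycth_2305501 was higher on glucose in every labelled strain than in WT. It had 463.1 and 422.2 CPM in the glucose libraries labelled ΔlaeA, 314.3 to 557.5 CPM in the 5 labelled Δgrf and 634.2 and 633.5 CPM in those labelled Δcre-1, against 202.4 and 73.5 CPM in WT on glucose. All 9 glucose libraries of the labelled strains lay above both WT libraries. The gene was not called higher than WT in Δgrf-2. With only the groups compared it was also not called in ΔlaeA, Δgrf-1 or Δgrf-3 (log2 differences 1.70, 1.62 and 1.76). On Avicel it stayed between 67.0 and 136.3 CPM in the 6 libraries labelled ΔlaeA and between 4.50 and 24.2 CPM in the 6 of WT.

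A set of 7 members, picked out after their values were seen, behaved otherwise. These were Mycth_88187, Mycth_2307988, Mycth_2301830, Mycth_2301829, Mycth_2118655, Mycth_2118654 and Mycth_2307981, the members called both higher in ΔlaeA than in the pooled Δgrf strains on glucose and higher at 4 than at 2 d on Avicel in the libraries labelled ΔlaeA. On glucose they summed to 8596 and 7093 CPM in the libraries labelled ΔlaeA, to 109 to 444.5 CPM in the 5 libraries labelled Δgrf and to 99.4 and 107.6 CPM in those labelled Δcre-1, against 7744 and 4350 CPM in WT. They held 4 of the 5 highest members of WT on glucose per length.

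On Avicel all 7 were called lower at 2 d than on glucose in the strain labelled ΔlaeA (log2 differences of −9.65 to −3.61), 6 at 4 d, and 0 at 6 d by edgeR (1 at an unadjusted p below 0.05, and 1 by DESeq2). High glucose levels and low 2 d levels in this strain had entered the choice of the 7. For these genes the fall at 2 d and the rise from 2 to 4 d, with their p-values, are therefore descriptions. With only the groups compared, 2 of the 7 were called lower at 6 d, Mycth_88187 (−1.02) and Mycth_2307981 (−1.23), and 2 higher. Of the 6, Mycth_2307981 and Mycth_2118654 were not called without replicate 1 of 4 d (−1.59 and −1.08). Mycth_2301829 had 1.17 and 1.24 CPM at 2 d, 49.4 and 116.2 CPM at 4 d and 726.8 and 501.0 CPM at 6 d, against 1062 and 884.6 CPM on glucose. The 2 d libraries were far below all others, and both 6 d libraries were still below both on glucose. Its log2 differences were −9.65 ± 0.74 SE at 2 d against glucose (adjusted p = 1.08e-06 in edgeR), 6.10 ± 0.66 at 4 against 2 d (adjusted p = 6.78e-06) and 2.89 ± 0.52 at 6 against 4 d (adjusted p = 0.000459). In WT on Avicel the same gene had 5.37 and 3.66 CPM at 2 d, 59.3 and 143.6 CPM at 4 d and 0.69 and 0.55 CPM at 6 d, so that the 2 strains overlapped at 4 d and lay far apart at 6 d.

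Mycth_2301830, the next gene in gene order, changed less. It had 33.3 and 34.0 CPM at 2 d, 77.0 and 142.1 CPM at 4 d and 1009 and 679.6 CPM at 6 d in the libraries labelled ΔlaeA, against 1466 and 1206 CPM on glucose (−5.31 ± 0.52 SE at 2 d, −0.66 ± 0.44 SE at 6 d). Its rise between 2 and 4 d (1.70 ± 0.45) was not called without replicate 2 of 4 d (1.15). Mycth_88187, the member with the most counts in WT on glucose, had 25.5 and 29.7 CPM at 2 d, 54.6 and 71.6 CPM at 4 d and 2023 and 1334 CPM at 6 d, against 3694 and 2991 CPM on glucose in the strain labelled ΔlaeA. Its rise was between 4 and 6 d (4.73 ± 0.52 SE, adjusted p = 4.34e-06 in edgeR), while that between 2 and 4 d (1.19 ± 0.45 SE) was lost whenever any of the 4 libraries concerned was left out (0.94 to 1.34) and with library totals (0.95, adjusted p = 0.0996), which would take it out of the set. In WT on Avicel Mycth_88187 was at 487.9 and 425.9, 418.4 and 549.0, and 91.2 and 141.3 CPM at 2, 4 and 6 d.

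Mycth_2307988 was back at its glucose level by 4 d. It had 74.9 and 88.7 CPM at 2 d, 1459 and 2449 CPM at 4 d and 2202 and 1719 CPM at 6 d in the libraries labelled ΔlaeA, against 2065 and 1737 CPM on glucose. The 4 and 6 d libraries overlapped those on glucose (0.04 ± 0.25 SE on both days), and the rise from the 2 d level was 4.58 ± 0.29 SE (adjusted p = 1.83e-08 in edgeR). Mycth_2307981, which lies 7 places before it in gene order, moved in the same directions at lower levels: 10.5 and 11.5 CPM at 2 d, 23.6 and 44.7 CPM at 4 d and 62.9 and 53.8 CPM at 6 d, against 145.3 and 124.3 CPM on glucose. Its rise between 2 and 4 d (1.63 ± 0.62 SE, adjusted p = 0.0415) was not called without either 2 d library or without replicate 2 of 4 d (1.05 to 1.70), nor with library totals (1.40, adjusted p = 0.0759) or with the replicate block (1.63, adjusted p = 0.0539). Without this call the gene is not in the set.

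The adjacent genes Mycth_2118654 and Mycth_2118655 ended above their glucose level. Mycth_2118655 had 0.65 and 0.52 CPM at 2 d, 21.6 and 36.8 CPM at 4 d and 272.9 and 220.1 CPM at 6 d in the libraries labelled ΔlaeA, against 125.8 and 116.9 CPM on glucose. Mycth_2118654 had 0.53 and 0.32, 9.09 and 17.4, and 98.0 and 74.3 CPM on the same days, against 39.1 and 34.2 CPM on glucose. In both, the 6 d libraries lay above both glucose libraries. The excess was called for Mycth_2118654 (1.23 ± 0.43 SE, adjusted p = 0.022) and not for Mycth_2118655 (1.02 ± 0.43 SE, adjusted p = 0.0517), and that of Mycth_2118654 was not called without either glucose library or without replicate 1 of 6 d (1.02 to 1.33).

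**Figure D4:**
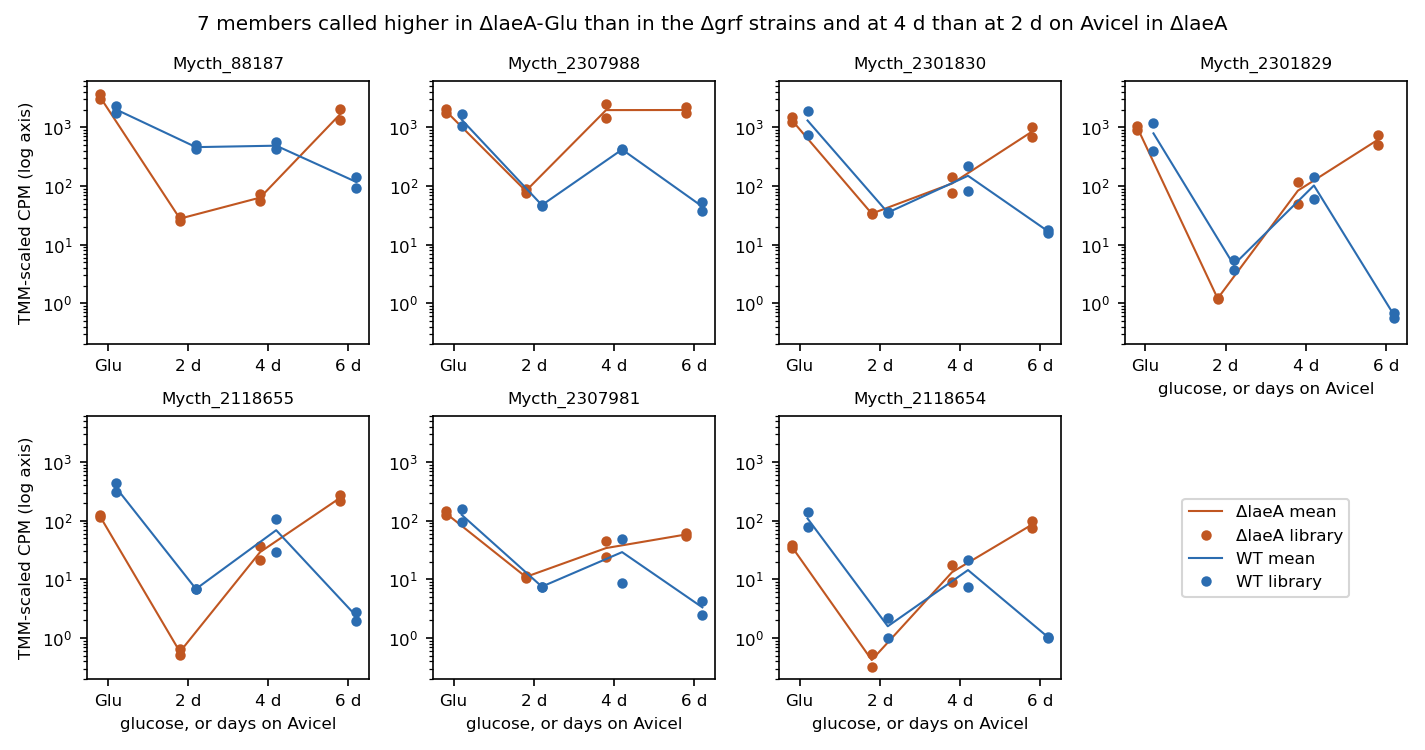
TMM-scaled CPM (log axis) of the 7 genes on glucose and after 2, 4 and 6 d on Avicel, with points for libraries and lines through the means of 2 libraries, in orange for libraries labelled ΔlaeA and blue for WT. All 7 were called lower at 2 d than on glucose in ΔlaeA, and levels in these libraries had entered their choice. At 6 d the ΔlaeA libraries lie above those of WT in every panel, for example at 726.8 and 501.0 against 0.69 and 0.55 CPM for Mycth_2301829.

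At 6 d the 7 genes summed to 6395 and 4581 CPM in the libraries labelled ΔlaeA and to 169.3 and 200.1 CPM in WT. The WT side of that difference belongs to the rule, which required low levels in WT at 6 d, so the difference is given as a description. cbdA and cdt-2, a cellodextrin transporter gene, averaged 52.4 and 235.8 CPM in the libraries labelled ΔlaeA at 6 d and 16.2 and 27.9 CPM in WT at 6 d, while at 4 d they averaged 4321 and 11670 CPM in the libraries labelled ΔlaeA. Their part in the rise of the 7 genes, and that of the Avicel being used up, was not tested. Between 2 and 4 d, 10 members were called higher in the libraries labelled ΔlaeA (13.4% of all genes tested) and 6 lower (10.2%), and between 4 and 6 d 7 were called higher (12.6%) and 10 lower (13%). Besides the 7 genes, Mycth_2308118, Mycth_75151 and Mycth_98002 were called higher at 4 than at 2 d. For the last 2 the rise was largest in replicate 2 of 4 d, at 101.6 CPM beside 27.5 CPM in replicate 1 for Mycth_75151 and at 29.4 beside 3.92 CPM for Mycth_98002, and without that library they stood at 1.22 and 1.61 and were not called, as was also the case without either 2 d library (2.48 and 2.50, and 3.53 and 3.97).

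Another group was formed by 5 members consecutive in gene order, again picked out by their values. In order these were Mycth_82782, Mycth_11658, Mycth_108317, Mycth_69746 and Mycth_82772, and they include the phosphopantetheine and transferase genes. They were the 5 members called lower in the glucose libraries labelled ΔlaeA than in the pooled Δgrf strains. Mycth_69746 had 1.68 and 1.77 CPM in the libraries labelled ΔlaeA, against 112.7 and 117.1 CPM in those labelled Δgrf-1, 28.4 CPM in the Δgrf-2 library and 202.0 and 168.8 CPM in those labelled Δgrf-3. Both ΔlaeA libraries were below all 5 of the others (−5.61 ± 1.18 SE, adjusted p = 0.00245 in edgeR). The other 4 genes had log2 differences of −5.93 ± 1.34 SE for Mycth_82772, −5.33 ± 1.10 SE for Mycth_82782, −4.42 ± 1.09 SE for Mycth_108317 and −3.52 ± 0.72 SE for Mycth_11658. Without replicate 1 labelled ΔlaeA the calls of Mycth_82772 (−5.48) and Mycth_108317 (−4.19) were lost.

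Over the 31 members, 9 were called higher and 5 lower in ΔlaeA than in the pooled Δgrf strains on glucose, beside 8.37% and 3.51% of all genes tested, and the member median was 0.13 beside −0.01 over all genes. The 9 were the 7 genes described above, at 2.72 to 7.53 on the log2 scale, Mycth_112080 (2.17 ± 0.22 SE) and Mycth_2305422 (1.23 ± 0.35 SE, not called without replicate 1 labelled ΔlaeA, at 1.07). The largest were Mycth_2301829 (7.53 ± 0.51), Mycth_88187 (5.46 ± 0.41), Mycth_2307988 (5.18 ± 0.23) and Mycth_2118655 (5.09 ± 0.40).

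In the libraries labelled Δcre-1, 4 of the 5 consecutive genes were near the floor and Mycth_82782 was at 6.73 and 5.76 CPM. The sums of the 5 were 7.65 and 7.34 CPM, against 375.1 to 2230 CPM in the 5 libraries labelled Δgrf. Mycth_82782 was 106 times lower than the mean of the Δgrf strains (191 counts in the 2 Δcre-1 libraries together, interval 91.9 to 123). Mycth_69746 had 2 counts in the 2 Δcre-1 libraries together, a level 1675 times lower than the mean of the Δgrf strains, with a 95% Poisson interval of 464 to 13830 times that covers counting error only. Mycth_82772 had 5 counts there (840 times lower, interval 360 to 2586), Mycth_108317 16 counts (215 times lower, interval 133 to 377) and Mycth_11658 15 counts (133 times lower, interval 80.7 to 238). All 5 were called lower in Δcre-1 than in the pooled Δgrf strains (adjusted p of 7.24e-05 to 0.000888 in edgeR), beside 14.9% of all genes tested. High levels in these same Δgrf libraries had entered the choice of the 5. The ratios to the Δgrf strains and these p-values are therefore descriptions.

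Replicates on Avicel differed widely at these genes. In WT at 2 d they summed to 195.5 CPM in replicate 1 and 35.0 CPM in replicate 2, with Mycth_82782 nearly level (29.1 and 22.4 CPM) and the other 4 each lower in replicate 2, and in the libraries labelled ΔlaeA at 4 d to 10.6 CPM in replicate 1 and 79.55 CPM in replicate 2. At 2 d in the strain labelled ΔlaeA they summed to 103.3 and 182.6 CPM on Avicel, against 25.8 and 25.7 CPM on glucose, the opposite direction to WT. The rule had set the direction in WT, and the 5 were picked for low levels in these ΔlaeA glucose libraries. The contrast is therefore a description, and so are the 2 calls that follow. Of the 5, 2 were called higher at 2 d on Avicel than on glucose in that strain: Mycth_69746 with 21.5 and 39.3 CPM against 1.68 and 1.77 CPM (4.13 ± 1.18 SE, adjusted p = 0.0184 in edgeR), and Mycth_82772 with 21.0 and 42.6 CPM against 0.99 and 2.27 CPM (4.26 ± 1.33 SE, adjusted p = 0.0278). Neither call was kept without either glucose library or without replicate 2 of 2 d (3.63 to 4.18 for Mycth_69746 and 3.66 to 4.99 for Mycth_82772). By 6 d the sums were 8.34 and 8.48 CPM.

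**Figure D5:**
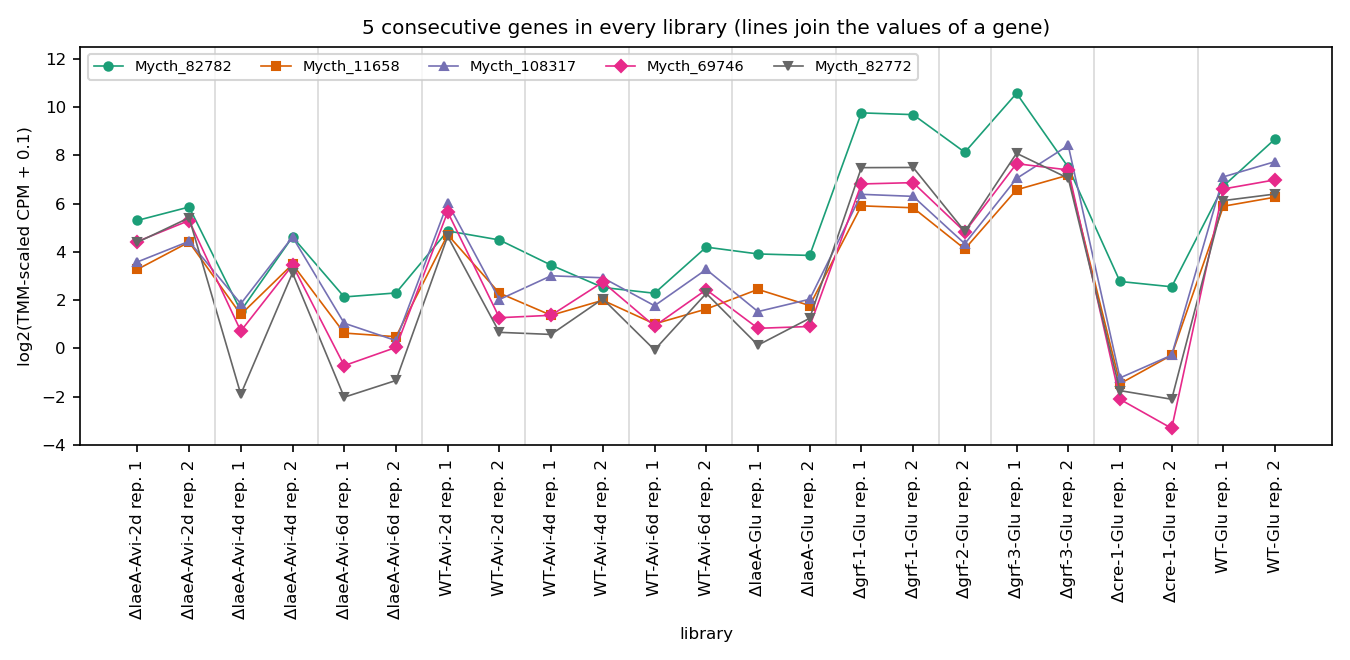
log2(TMM-scaled CPM + 0.1) of 5 consecutive genes in each of the 23 libraries, in columns by label, with a marker and colour for each gene and lines that only join its values. On glucose all 5 are high in Δgrf-1, Δgrf-3 and WT, low in ΔlaeA and lowest in Δcre-1. In the Δgrf-2 library Mycth_82782 is at 280.6 CPM and the others are at 17.3 to 28.7 CPM. At 4 d in ΔlaeA all 5 are higher in replicate 2 (sums of 10.6 and 79.55 CPM). Between the Δgrf-3 replicates Mycth_82782 is lower in replicate 2 (1529 and 182.5 CPM) and Mycth_108317 higher (132.0 and 341.3 CPM).

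Mycth_2064854, the gene just before the run and described with a SANT DNA-binding domain, is no member. It averaged 39.5 CPM in WT on glucose and 21.3 CPM in WT on Avicel at 2 d. It thus fell short of the level limit and of the 4-fold limit of the rule. Its glucose means were 6.45 CPM in ΔlaeA, 40.5, 23.1 and 53.9 CPM in Δgrf-1, Δgrf-2 and Δgrf-3, and 0.16 CPM in Δcre-1, the same order of strains at the low end as in the run. Mycth_108314, the gene just after it, had 47.9 CPM in ΔlaeA, 40.6 to 46.8 CPM in the Δgrf strains, 10.5 CPM in Δcre-1 and 97.0 CPM in WT on glucose.

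Across the means of the 12 groups, log2 levels within the run correlated with a median r of 0.97 over 10 pairs (0.88 to 0.99) and within the set of 7 with a median r of 0.90 over 21 pairs (0.70 to 0.99). Over all 465 pairs of members the median was 0.34. These are descriptions across groups whose libraries and scaling are shared by all genes, and both sets had been picked for their pattern.

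The members were further described in Δcre-1 against the pooled Δgrf strains, in which the rule had only bounded Δcre-1 from above. There 17 members were called lower (14.9% of all genes tested) and 4 higher (10.5%), with a median of −1.25 beside −0.09 over all genes. Mycth_2308497 rose most, with 529.7 and 506.7 CPM in the Δcre-1 libraries, against 58.9 and 57.2 CPM in Δgrf-1, 182.3 CPM in Δgrf-2 and 18.0 and 36.0 CPM in Δgrf-3 (2.98 ± 0.42 SE, adjusted p = 4.75e-05 in edgeR). Both Δcre-1 libraries lay above all 5 others, and above the 52.2 and 213.9 CPM of WT on glucose. Mycth_2306121 had 15.8 and 18.1 CPM in Δcre-1, against 2.22 to 5.32 CPM in the 5 Δgrf libraries (2.46 ± 0.26 SE, adjusted p = 8.91e-07). The other 2 called higher were Mycth_2305422 (1.41 ± 0.35 SE) and Mycth_2301829 (1.20 ± 0.45 SE), and with library totals in place of TMM, which moved the median of all genes by −0.53 in this comparison, both fell short at 0.88 and 0.67. The call of Mycth_2301829 was also lost whenever any of the 6 libraries of Δcre-1, Δgrf-1 and Δgrf-3 was left out (1.11 to 1.28). Mycth_88187 and Mycth_2307988 of the set of 7 were called lower in Δcre-1 by little more than 2-fold (−1.35 and −1.02), and without the single Δgrf-2 library they stood at −0.59 and −0.43 and were not called. Neither was Mycth_88187 called without replicate 2 of Δgrf-3 (−0.91) or either Δcre-1 library (−1.27 and −1.46), nor Mycth_2307988 without replicate 1 of Δgrf-3 (−0.97) or replicate 2 of Δcre-1 (−0.98).

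Against WT on glucose itself, whose high level chose the members, low values in other strains had to be frequent, and nothing is read from these counts. Called lower were 20 members in ΔlaeA (5.6% of all genes tested), 21 in Δgrf-1 (9.99%), 17 in Δgrf-2 (3.4%), 22 in Δgrf-3 (7.99%) and 28 in Δcre-1 (20.2%), and 12 members were lower in all 5. The share of all genes lower in all 5 was not counted. Called higher were 1 in ΔlaeA (6.28% of all), 1 in Δgrf-1 (5.02%), 0 in Δgrf-2 by edgeR (1.68%; 1 at an unadjusted p below 0.05 and 1 by DESeq2), 1 in Δgrf-3 (5.55%) and 2 in Δcre-1 (15.4%), all of them Mycth_2305501 or, in Δcre-1, Mycth_2308497.

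Of the 11 members called lower on no day in the libraries labelled ΔlaeA on Avicel, 5 are the consecutive genes. The other 6 had at most 26.6 CPM on glucose in that strain: Mycth_2303048 (6.23 and 5.59 CPM), Mycth_2301578 (26.6 and 26.0 CPM), Mycth_98002 (0.73 and 0.86 CPM), Mycth_2308354 (4.24 and 5.63 CPM), Mycth_2306121 (3.56 and 2.86 CPM) and Mycth_2303056 (0.37 and 0.23 CPM). Among these 6, Mycth_2301578 had the highest level on Avicel in that strain, with 40.2 and 35.3 CPM at 2 d, 27.6 and 20.6 CPM at 4 d and 20.5 and 18.0 CPM at 6 d. It lay above glucose at 2 d (0.52 ± 0.53 SE) and below it at 6 d (−0.45 ± 0.53 SE), and neither difference was called. Mycth_2303048 had 86.5 and 825.0 CPM in WT on glucose, and its highest levels on Avicel were 74.7 and 87.4 CPM in WT at 6 d.

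Mycth_2311486 and Mycth_2308354 were called higher at 2 d on Avicel than on glucose in the strain labelled ΔlaeA. Mycth_2311486 had 187.5 and 198.4 CPM on Avicel at 2 d, against 84.6 and 89.9 CPM on glucose (1.15 ± 0.35 SE, adjusted p = 0.0232 in edgeR), and by 6 d it was called lower at 34.8 and 34.1 CPM (−1.34 ± 0.35 SE, adjusted p = 0.00459). Mycth_2308354 had 14.1 and 17.0 CPM at 2 d, against 4.24 and 5.63 CPM on glucose (1.65 ± 0.51 SE, adjusted p = 0.0251). In both genes the 2 d libraries lay above both glucose libraries. Neither rise was called when any of the 4 libraries was left out (1.10 to 1.19 and 1.46 to 1.87). Mycth_2311486 was lowest on glucose in the libraries labelled Δcre-1 (24.1 and 23.8 CPM), against 37.6 to 64.9 CPM in the 5 labelled Δgrf (−1.25 ± 0.32 SE, adjusted p = 0.00418).

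Of the remaining members, Mycth_2308119, adjacent to Mycth_2308118, was called lower at 4 and 6 d (−2.81 ± 0.49 and −1.88 ± 0.47 SE) and not at 2 d (−1.15 ± 0.46 SE), with 48.6 and 42.4 CPM on glucose in the strain labelled ΔlaeA. Mycth_2308497 was called lower on the same 2 days, with 4.17 and 5.10 CPM at 4 d and 0.22 and 0.93 CPM at 6 d, against 61.8 and 53.5 CPM on glucose (−3.64 ± 0.59 and −6.65 ± 0.74 SE). Mycth_2308266 and Mycth_75151 were called lower at 6 d alone (−2.14 ± 0.48 and −2.39 ± 0.73 SE), and the call of Mycth_75151 was lost without either 6 d library (−2.50 and −2.29).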

How the data were processed

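RNA-seq read counts per gene were used, which the authors deposited as 1 table after aligning reads with TopHat2 2.0.8b and counting them with HTSeq, of version 0.5.4p2 by the submitters' notes and another by the study's methods. Neither genome build nor strand setting is given in the sources used here. Whole counts were given for 23 of 24 libraries. The column for replicate 1 of Δgrf-2 instead holds RPKM that the authors had computed from the 2 libraries labelled Δgrf-1 (whole gene lengths within 0.01 base at 8865 of 8865 genes above 0). It was used only to recover gene lengths, which left Δgrf-2 with a single library whose spread was taken to equal that of the other groups. Another 2 lines without a gene were left out.

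The rule used CPM on column totals. All 23 libraries were fitted with 1 coefficient per group (12 groups) in edgeR 4.0.16 under R 4.3.3, with TMM scaling, the filterByExpr filter and robust quasi-likelihood F-tests. This left 8827 genes, all 31 members among them, 11 residual degrees of freedom and a common dispersion of 0.0312. A call needed both a p below 0.05 after Benjamini-Hochberg adjustment and a log2 fold change of 1 or more in size. The pooled Δgrf level was the mean of the 3 strains with equal weight. The fit was tested on simulated data. Over genes with at least 20 counts, the mean chi-square between replicates was 3.19 for Δgrf-1, 4.05 for Δcre-1 and 14.4 to 273.9 for the other groups, where counting noise alone gives 1, so every replicate was kept as a library of its own. Replicate numbers were checked for pairing over 55 pairs of groups: deviations of same-numbered libraries correlated at −0.25 to 0.37, over 0.1 in 10 pairs, so the numbers were not taken to pair libraries.

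The members, gene lists, tests and named genes were chosen with earlier results of these data known. Named were the 10 members with the most counts in WT on glucose, described members, the largest called changes at 2 d in ΔlaeA and in ΔlaeA and Δcre-1 against pooled Δgrf (at least 10 CPM, no overlap), the highest members never called lower in ΔlaeA on Avicel, genes nearest the thresholds, and the deleted genes with cdt-2 and cbdA. Other members were named after their values were seen. Tried as alternatives were fits with only the groups compared, a replicate block, DESeq2 1.42.0, its size factors (RLE) in edgeR, plain library totals, all genes unfiltered, genes of 10 CPM or more in 2 libraries, calls by adjusted p alone, other limits of the rule and leaving out each library. Added after seeing the data were fits without both WT libraries on glucose or both Δgrf-3 libraries, and the members that each WT glucose library gives alone. Names came from assembly ASM22609v1, matched for 9087 genes. Its gene coordinates were used only for gene order and overlaps, and no sequences were used. Plots used matplotlib 3.10.9 under Python 3.11.15.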

Additional observations from a re-analysis of the deposited data

How the results depend on the processing

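With 2 libraries a group, and 1 for Δgrf-2, the spread is borrowed across groups that differ in spread, and 3 counts limit the lowest levels. Of 372 pairs of a member and a comparison 231 were called, and 134 of these calls were kept under every other setting listed under the processing, apart from those added after seeing the data. The choice of members moved with the limits: 59 genes at 3-fold (all 31 members among them), 18 at 6-fold, and 26 to 45 when a library was left out. TMM-scaled totals gave 27, 20 CPM 40 and 100 CPM 25. Library totals moved the median of all genes by −0.60 to 0.23 on the log2 scale against TMM.

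With the replicate block the members called higher were 2 at 6 d against glucose in ΔlaeA and 1 in Δgrf-2 against WT on glucose, and the block took 4 of the single calls and added 3. With only the groups compared, 8 were called higher at 2 d, 0 higher at 4 d, and 21 lower and 2 higher at 6 d in ΔlaeA against glucose. Against WT on glucose that setting, with fewer libraries, gave 8 lower and 0 higher in ΔlaeA, 0 lower in Δgrf-2, 4 lower and 0 higher in Δgrf-3, and 1 higher in Δcre-1. Library totals gave 2 higher at 6 d in ΔlaeA and 2 higher in Δcre-1 against pooled Δgrf. DESeq2 gave 2 higher at 6 d in ΔlaeA and 1 higher in Δgrf-2 against WT. Without both WT glucose libraries 2 were called higher at 4 d, and without both Δgrf-3 libraries 1 higher in Δgrf-2 against WT. The cause of these moves was not tested.

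When a library was left out, called lower and higher ranged over 13 to 14 and 0 to 2 (2 d), 14 to 16 and 0 to 1 (4 d), and 12 to 13 and 0 to 1 (6 d) in ΔlaeA against glucose, 4 to 9 and 5 to 9 (4 against 2 d) and 6 to 13 and 6 to 8 (6 against 4 d). They ranged over 3 to 6 and 8 to 10 in ΔlaeA and 13 to 17 and 3 to 5 in Δcre-1 against pooled Δgrf. Against WT on glucose they were 13 to 21 and 1 in ΔlaeA, 19 to 23 and 1 in Δgrf-1, 15 to 19 and 1 in Δgrf-2, 20 to 24 and 1 in Δgrf-3, and 25 to 28 and 2 in Δcre-1. Mycth_98002 in Δgrf-1 against WT on glucose, at −6.07, stood at 0.0239 without WT replicate 2 and at −7.06 without WT replicate 1.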
